A study of Gallus gallus with 9 samples.

Results

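The genes described here encode the ligands, receptors, extracellular antagonists and SMAD proteins of the TGF-beta superfamily, measured in cultured explants of chick heart-forming mesoderm. They were chosen by their place in the pathway, from a list of 46 names that stand for 45 genes because GDF8 and MSTN are the same gene. By role, 14 are ligands, 13 are receptors or co-receptors, 9 are extracellular antagonists or binding proteins, and 9 are SMADs or their intracellular regulators. Each gene was represented by 1 probe set, the one with the highest mean over the 9 arrays among those annotated with its symbol. ACVR1 and LEFTY2 were found under the symbols ATVR1 and LEFTY1. A probe set was present for 43 of the 45 genes, of 13009 genes named on the array, and none was annotated for SMAD4 or FSTL3. Of these 43 members, 36 were bright enough to be tested, of 11690 named genes tested in all.

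The tissue was splanchnic mesoderm of the anterior heart field of chick embryos, a pool of progenitor cells that adds muscle to the growing heart and also contributes to the pharyngeal arches. Explants were cultured on collagen in a medium with fetal calf serum and chick embryo extract, which all cultured groups shared. Total RNA of each sample was labelled with biotin and hybridised to 1 Affymetrix array. The study asked how added BMP4 changes gene expression in these cells over the first day. Of the 7 groups, 4 received no agent, and these were taken at 0, 3, 12 and 24 h. The other 3 groups received human recombinant BMP4 at 200 ng/ml and were taken at 3, 12 and 24 h. The 12 h groups hold 2 arrays each, named A and B, and every other group holds 1 array. Embryo stage, strain and the number of embryos pooled are not given in the sources used here. The labels do not say whether A and B came from separate cultures, so every p-value rests on the scatter of these arrays alone, and that scatter may be technical.

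Ligands of this superfamily bind pairs of type I and type II receptor kinases on the cell surface. The BMP ligands act largely through SMAD1 and SMAD5, and TGF-beta, activin and Nodal through SMAD2 and SMAD3, with SMAD4 as the common partner. Secreted antagonists hold ligands away from the receptors, and many of the pathway's own inhibitors are among its targets. In the early embryo, BMP signals from surrounding tissue are known to promote heart muscle differentiation.

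Array signals are linear probe set intensities, as deposited. Median signal per array was 67.2 to 67.7. Differences were tested with limma on log2(signal + 27.79), and a member was called when its adjusted p over all 28329 tested probe sets was under 0.05. Each log2 difference is followed by its standard error after ±. Because lone arrays have no replicate, their comparisons borrow the spread of the 12 h duplicates. Among the 36 tested members, the untreated 12 h arrays A and B differed by a median of 1.23-fold and by 3.75-fold at most, for BMP5. The BMP4 12 h arrays differed by a median of 1.19-fold and by 4.79-fold at most, for BMPR1B. The ACTB control probe sets gauge RNA integrity by their 3′ over 5′ signal. Their ratio was 3.72 on the untreated 24 h array and 5.67 on the BMP4 24 h array, the extremes of the 9 arrays. The GAPDH ratio was 1.32 and 1.63 on those arrays, and was highest on the untreated 3 h array, at 2.22. Among markers of the anterior heart field, ISL1 (5402 to 11120), NKX2-5 (4049 to 9211) and TCF21 (738 to 2226) stood above the array median on all 9 arrays. Of the 12 markers measured, 6 did so, while TBX1 was above the median on 7 arrays, FGF10 on 5, MEF2C, GATA4 and TBX5 on 2 each, and FOXF1 on 0. Markers of other cell types were present too: the summed signal of 11 cardiomyocyte genes was 31144 at 0 h, 71443 in untreated explants at 24 h and 138235 in BMP4-treated explants at 24 h. The sum of 10 foregut endoderm and epithelial genes was 49711 at 0 h, and 64314 without and 91867 with BMP4 at 24 h. That of 11 neural crest genes ran from 13579.5 to 29134 over the arrays. Such sums follow their brightest genes. DLX5 ran from 4953 to 15054.5, while SOX10 went from 1887 at 0 h to 290 without and 255 with BMP4 at 24 h. Of 9 tested crest markers, 1 was called higher and 5 lower from 3 h to 24 h over both agents. In the foregut sum at 0 h, EPCAM gave 21494 and KRT24 19619. These and CDH1, FOXA2, HHEX and SOX17, 6 of the 10 genes, stood above the array median on all 9 arrays. SOX2 did so on 5 arrays, NKX2-1 on 2, and FOXA1 and SHH on 1 each.

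Of the 43 measured members, 22 (51.2%) lay above the array median on all 9 arrays, beside 61.6% of all named genes. By role these were 8 of 14 ligands, 5 of 13 receptors and co-receptors, 4 of 8 extracellular proteins and 5 of 8 SMADs and regulators. On all 9 arrays 14 members (32.6%) lay above the 75th percentile, beside 40.8% of all named genes. These 14 were the ligands BMP2, BMP7, TGFB2 and TGFB3, the receptors ACVR1, ACVR2A, ACVR2B and TGFBR1, the extracellular proteins LTBP1 and TWSG1, and the intracellular proteins SMAD1, SMAD2, SMAD3 and SMURF1. The type II activin receptor gene ACVR2A, for example, ran from 4386 to 6208 over the 9 arrays. The type I receptor gene ACVR1 ran from 6183 to 9033. A probe set's signal depends on its probes as well as on its transcript, so signals are not compared here between genes.

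A few members were near the floor of the array. LEFTY2 (10.3 to 43.4), a Nodal antagonist, MSTN (6.31 to 43.1), an activin-like ligand that limits skeletal muscle growth, and ACVR1B (10.1 to 30.9), a type I receptor for activin and Nodal, stood at or below the 40th percentile on all 9 arrays. NODAL (17.9 to 60.2), TGFBR3 (22.6 to 47.1), GREM1 (17.4 to 50.4) and SKI (5.60 to 47.4) passed the 40th percentile on 1 array each. These 7 members were not tested. NODAL is the ligand that patterns the left side of the embryo, TGFBR3 a co-receptor for TGF-beta, GREM1 a secreted BMP antagonist and SKI a SMAD co-repressor.

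**Figure D1:**
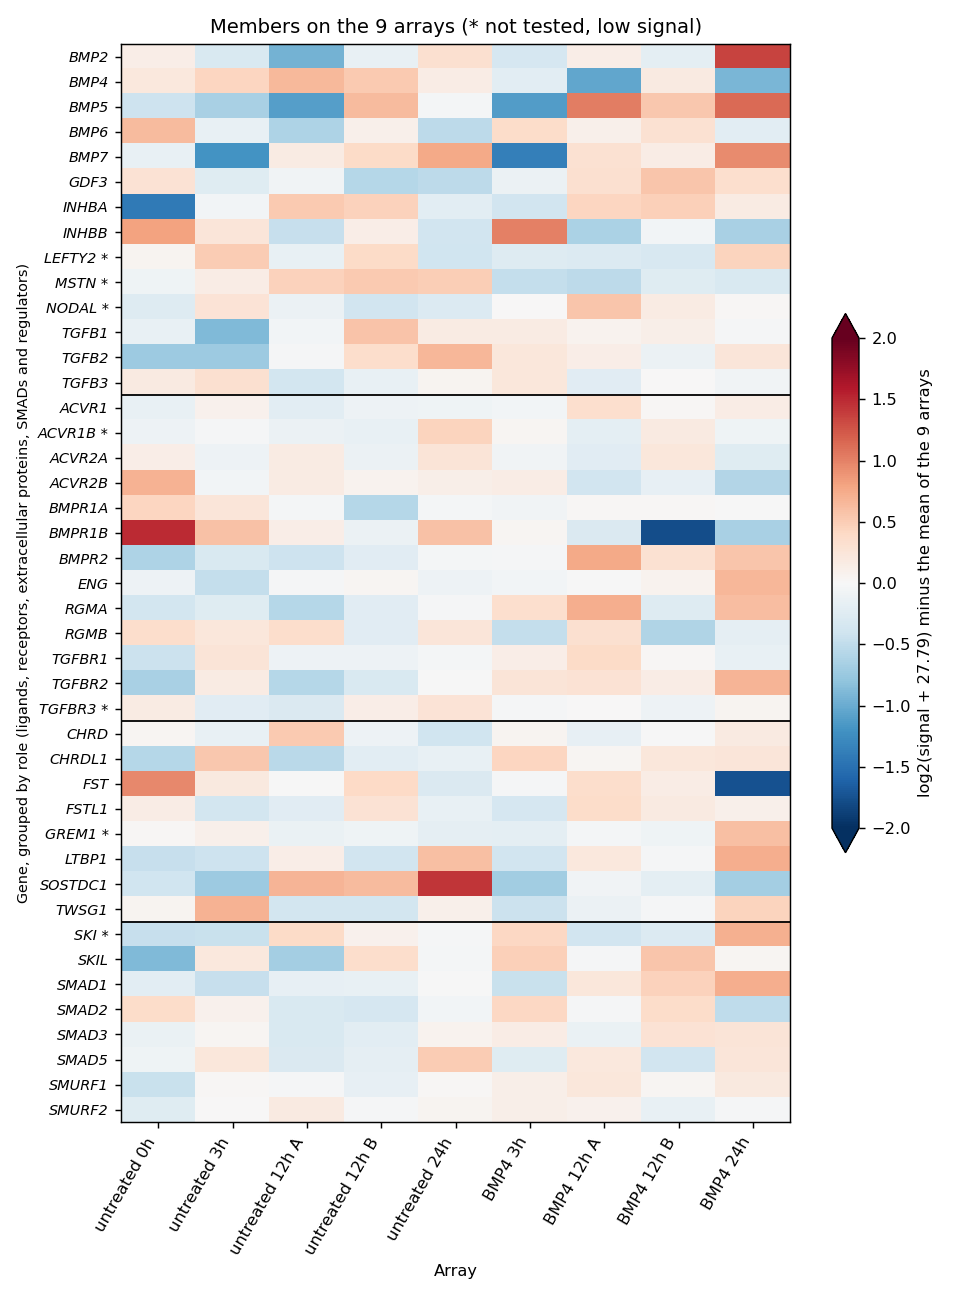
Signal of the 43 measured members on the 9 arrays, as log2(signal + 27.79) minus the mean of that gene over the arrays, with rows grouped by role and lines between the roles. Red is above and blue below the gene's own mean; INHBA is low on the untreated 0 h array, BMP7 on both 3 h arrays, and SOSTDC1 is high on the untreated 24 h array.

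BMP4 treatment altered few of these genes beyond the spread of the arrays. SOSTDC1 was the 1 member called, lower with BMP4 at 24 h, and no member was called higher at any time. SOSTDC1 encodes a secreted antagonist of BMP ligands that also acts on Wnt signaling. Over the 3 times as a whole, 0 of 36 members were called, while 1.15% of all tested genes were called higher and 0.71% lower. At 12 h 0 members were called, beside 0.693% of all genes higher and 0.342% lower. At 3 h 0 were called, beside 0.0257% higher and 0% lower. Each arm has 1 array at 3 h and 1 at 24 h. At 24 h 0 of 36 were called higher, beside 0.436% of all genes, and 1 of 36 lower, beside 0.778%. No member was called for a BMP4 difference at 24 h unlike that at 3 h, where 0.0257% of all genes were called higher and 0.103% lower. Against such shares, counts of 0 or 1 among 36 genes do not set the members apart from other genes.

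Counts of 0 hold at the adjusted threshold of limma, the only tool used, and without A and B as a replicate block. At an unadjusted p under 0.05, 8 members passed over the 3 times together (22.2%, beside 13.4% of all genes), 8 at 12 h (22.2% beside 11.0%) and 2 at 3 h (5.56% beside 4.21%). The change between 3 h and 24 h gave 4 (11.1% beside 7.93%). The median BMP4 difference of the 36 members was 0.12 on the log2 scale over the 3 times, against −0.0060 for all genes. By sign, 24 members were positive and 12 negative. The 24 include RGMA and TGFBR2, which passed the filter on dim probe sets through BMP4 arrays only. Medians at the single times were 0.035 at 3 h, 0.22 at 12 h and 0.15 at 24 h, against −0.014, −0.0034 and 0.00068 for all genes. The 95% interval of the log2 BMP4 difference over the 3 times lay within 2-fold either way for 28 of the 36 members. For those genes an average change beyond 2-fold fell outside the interval, but a change at a single time is not bounded by it. TWSG1, for example, was at −0.05 over the 3 times and −1.12 between the single arrays at 3 h. TGFB1 was at 0.14 and 1.06, where its 3 h signals were 24.7 without and 81.5 with BMP4. At such low signals the log2 difference understates the ratio, because a constant was added. At 24 h alone only 8 of 36 intervals lay within 2-fold.

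**Figure D2:**
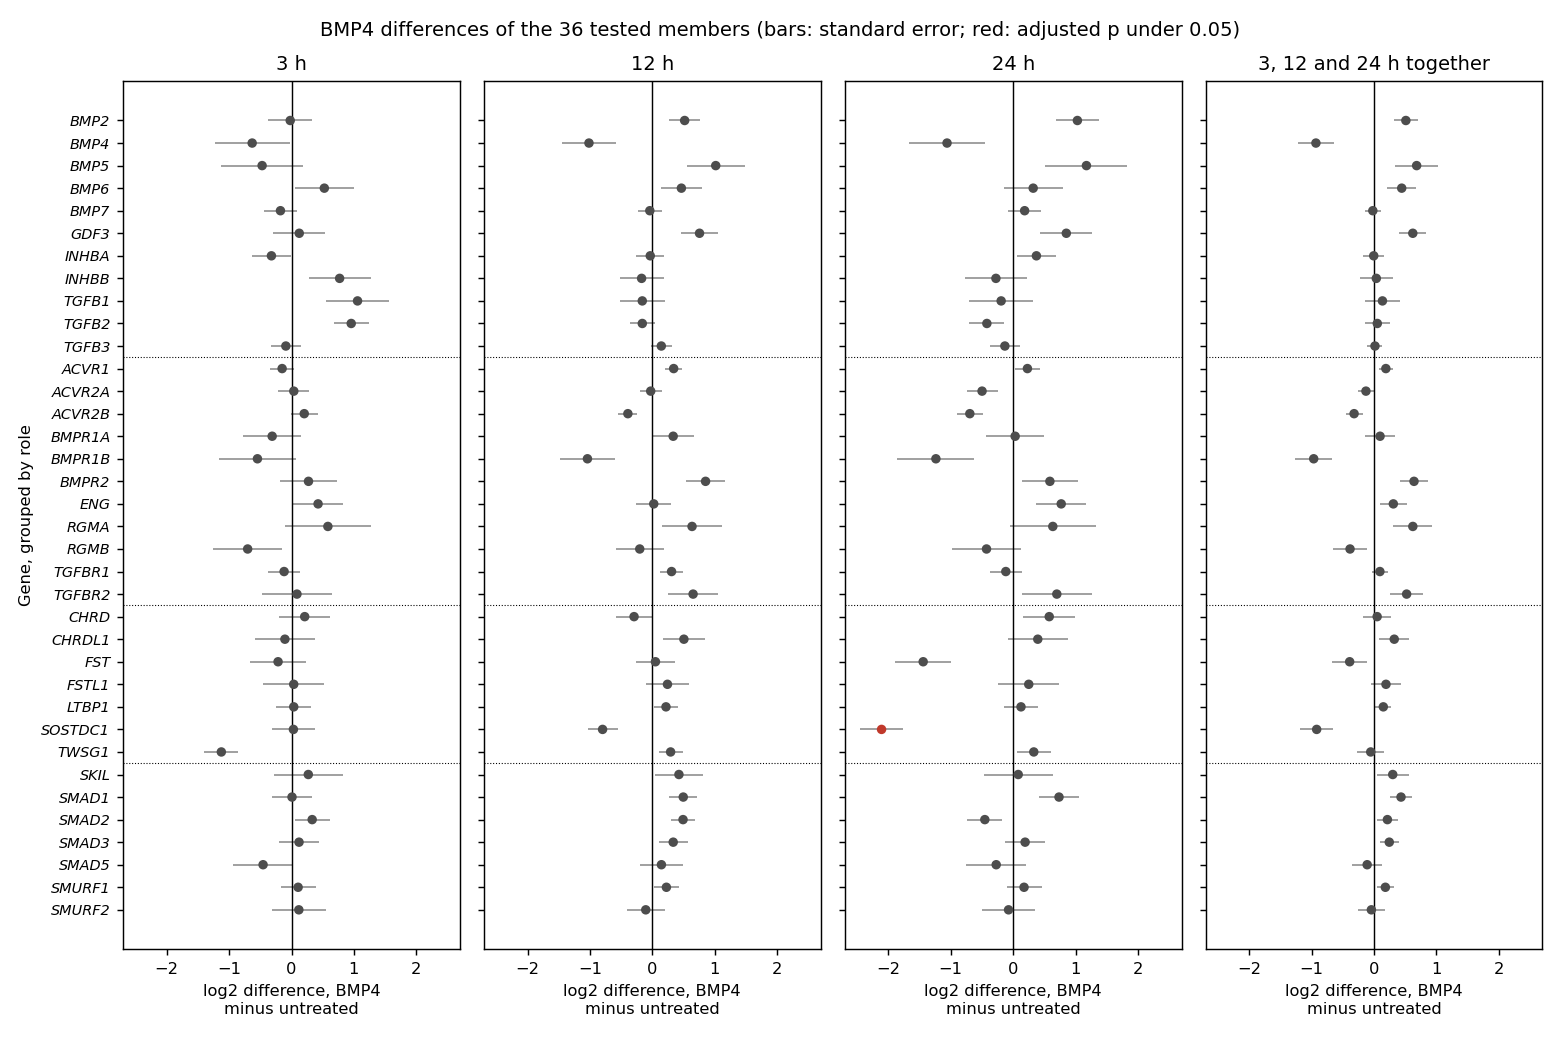
BMP4 minus untreated difference of each of the 36 tested members at 3, 12 and 24 h and over the 3 times together, on the log2(signal + 27.79) scale, with bars of 1 standard error. SOSTDC1 at 24 h (−2.11) is the only point past the threshold, and bars are widest at 3 and 24 h, where each arm has 1 array.

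More members were called for time in culture than for BMP4. INHBA was called higher at 12 h than at 0 h in untreated explants, and SOSTDC1 and TGFB2 at 24 h. Over both agents, BMP7 was higher at 12 h than at 3 h, and BMP7, BMP2 and LTBP1 were higher at 24 h than at 3 h. No member was called lower with time. All of those called are ligands or extracellular proteins, roles that hold 11 and 7 of the 36 tested members. In untreated explants, 0 of 36 members were called at 3 h against 0 h, beside 0.496% of all genes higher and 0.0257% lower. At 12 h 1 of 36 was called higher and 0 lower, beside 1.24% and 0.24% of all genes. At 24 h 2 were called higher and 0 lower, beside 1.9% and 0.659%. The 3 untreated comparisons share the single 0 h array. The comparisons over both agents, added after the data had been seen, gave 1 higher and 0 lower from 3 h to 12 h (2.87% and 1.77% of all genes) and 3 higher and 0 lower from 3 h to 24 h (5.65% and 4.32%). Beside these shares, counts of 0 to 3 among 36 genes do not set the members apart from other genes. At an unadjusted p under 0.05, 6 members (16.7%) passed at 3 h against 0 h, beside 11.6% of all genes. Whether fewer cells of a type or less RNA per cell lies behind a lower signal in these bulk explants cannot be told apart.

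Among the 11 tested ligands, BMP7, a BMP ligand made by many embryonic tissues, was called in both comparisons over both agents. Its signal was 1256.6 at 0 h, then 595, 1571 and 1821, and 2390.1 in untreated explants at 3, 12 (A and B) and 24 h. With BMP4 it was 523 at 3 h, 1735 and 1557 at 12 h and 2719 at 24 h. The 3 h arrays were the lowest and the 24 h arrays the highest in each arm, and the arms overlapped at 12 h. BMP7 rose 2.90-fold from 3 h to 12 h (log2 1.53 ± 0.16, limma adjusted p = 0.00018) and 4.40-fold from 3 h to 24 h (2.14 ± 0.19, adjusted p = 2.59e-05). The lower value at 3 h than at 0 h did not pass (−1.05, adjusted p = 0.205), nor did the higher value at 24 h than at 0 h (0.91, adjusted p = 0.151). Its 2 other probe sets were positive as well, at 0.92 and 0.42 from 3 h to 12 h and at 0.72 and 0.83 from 3 h to 24 h. The BMP4 difference in BMP7 over the 3 times was −0.02, with a 95% interval from −0.30 to 0.27.

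BMP2, the close relative of BMP4 with strong heart-inducing activity in the chick, was at 2686 at 0 h. Untreated explants gave 1963 at 3 h, 1256 and 2189 at 12 h and 3043 at 24 h. BMP4-treated explants gave 1935 at 3 h, 2678 and 2129 at 12 h and 6241 at 24 h. The BMP4 24 h array stood far above the other 8, and the arms overlapped at 12 h. Over both agents BMP2 rose 2.22-fold from 3 h to 24 h (1.15 ± 0.27, limma adjusted p = 0.0208). The BMP4 difference at 24 h, 2.04-fold, did not pass (1.03 ± 0.35, adjusted p = 0.308). A second tested probe set of BMP2, much dimmer, gave −0.10 from 3 h to 24 h, and with the mean of the gene's probe sets the difference was 0.53 (adjusted p = 0.378). It was not called without the variance trend either.

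INHBA encodes the beta A chain of activin and inhibin. Its signal was 172 at 0 h, and untreated explants gave 483 at 3 h, 735 and 707 at 12 h and 431 at 24 h. With BMP4 the values were 381 at 3 h, 693 and 715 at 12 h and 567 at 24 h. The 0 h array was the lowest of the 9, the 12 h arrays of both arms were the highest, and the arms overlapped at 12 h. INHBA rose 3.74-fold from 0 h to 12 h in untreated explants (1.90 ± 0.28, limma adjusted p = 0.0116), a call lost without the variance trend (adjusted p = 0.259). Neither 3 h (1.35, adjusted p = 0.152) nor 24 h (1.20, adjusted p = 0.111) differed from 0 h at the threshold. A second, dimmer probe set gave 0.90 from 0 h to 12 h. INHBB, the beta B chain, had no call, with −0.97 from 0 h to 12 h in untreated explants and −0.09 for its second probe set. From 3 h to 24 h over both agents INHBB gave −1.14 (limma adjusted p = 0.0986) and −0.90 for that probe set. INHBA gave 0.19 there.

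TGFB2, the TGF-beta ligand tied to endocardial cushion formation, has 1 probe set. It stood at 1020.4 at 0 h and 1024 at 3 h, then 1686 and 2205 at 12 h and 2722 at 24 h without BMP4. The treated signal was already 2013 at 3 h, then 1874 and 1582 at 12 h and 2026 at 24 h. The untreated values climbed over the day while the BMP4 values stayed in a narrow band, and the arms overlapped at 12 h. TGFB2 rose 2.62-fold from 0 h to 24 h in untreated explants (1.39 ± 0.28, limma adjusted p = 0.0400). The call was lost with a pseudocount of 1 (adjusted p = 0.0514), without the filter on dim probe sets (0.0720) and without the variance trend (0.302). The difference with BMP4 was 0.96 at 3 h (adjusted p = 1.0) and −0.42 at 24 h, and the change between these, −1.38, did not pass (adjusted p = 0.449).

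**Figure D3:**
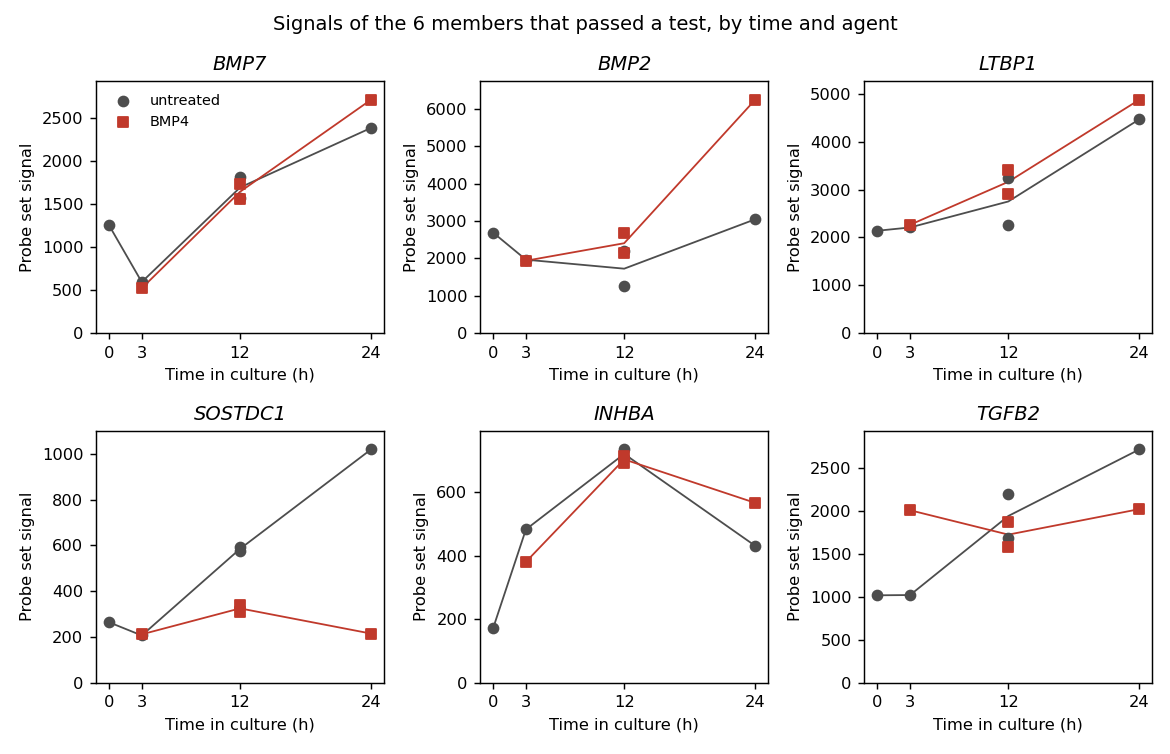
Signal of the 6 members called in any comparison against time in culture, with untreated arrays as grey circles, BMP4 arrays as red squares and lines through the value or, at 12 h, the mean of A and B. SOSTDC1 parts between the arms after 3 h, reaching 1019 without and 215 with BMP4 at 24 h, while BMP7, LTBP1 and INHBA run close together in both arms.

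The remaining ligands were not called in any comparison. The probe set for the chick BMP4 transcript gave 91.9 at 0 h, 111 at 3 h, 135 and 121 at 12 h and 87.1 at 24 h in untreated explants. With added BMP4 protein it was 61.8 at 3 h, 22.6 and 90.0 at 12 h and 27.3 at 24 h. The treated arrays were below the untreated ones at each time, and the 2 treated 12 h arrays differed 3.97-fold from each other. The difference over the 3 times was −0.93 ± 0.29 (limma adjusted p = 0.192), a size that depends on the added 27.79 because some signals lie below it. The other 2 probe sets of BMP4 gave −0.03 each over the 3 times, and at 3 h one of them was positive (0.69).

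BMP5, a BMP ligand of the pharyngeal and heart region, gave uneven values between its duplicates. Its signal was 271 at 0 h, with 227, then 157 and 589, and 358 in untreated explants at 3, 12 and 24 h. With BMP4 it was 156 at 3 h, 777 and 552 at 12 h and 842 at 24 h. The untreated 12 h arrays differed 3.75-fold from each other, and the arms overlapped at 12 h. Without the untreated 12 h B array, BMP5 was called higher with BMP4 at 12 h, and without the A array it was called higher at 12 h and at 24 h than at 3 h over both agents. With all arrays these differences were 1.02, 1.15 (limma adjusted p = 0.196) and 1.42 (adjusted p = 0.114).

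GDF3, a Nodal-related ligand, was 237 at 0 h, then 156, 179 and 117, and 123 without BMP4, and 172, 243 and 288, and 244 with it. Its treated arrays were above the untreated ones at each time, by 0.62 ± 0.22 over the 3 times (limma adjusted p = 0.284). TGFB3, a TGF-beta ligand, was among the steadiest members, between 1947 and 3143, with a BMP4 difference of 0.02. BMP6 (74.3 to 216), INHBB (60.4 to 252) and TGFB1 (24.7 to 116) were dim, and the BMP4 differences over the 3 times were 0.44 for BMP6, 0.04 for INHBB and 0.14 for TGFB1.

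No receptor or co-receptor was called in any of the 10 comparisons. Among the 11 tested, BMP4 differences over the 3 times ran from −0.97 to 0.64, with 7 positive and 4 negative. The positive ones include RGMA and TGFBR2, which were tested only through BMP4 arrays. The 2 lowest adjusted p-values in this group belonged to BMPR1B and BMPR2. BMPR1B, a type I BMP receptor, was 478 at 0 h and 241 at 3 h, 170 and 138 at 12 h and 243 at 24 h in untreated explants. With BMP4 it was 156 at 3 h, 119 and 24.9 at 12 h and 87.1 at 24 h. Treated arrays were lower at each time, and the array at 0 h was the brightest. The difference over the 3 times was −0.97 ± 0.30 (limma adjusted p = 0.192).

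BMPR2, the type II receptor specific to BMPs, was 63.6 at 0 h, 86.2 at 3 h, 77.5 and 92.1 at 12 h and 109 at 24 h without BMP4. The treated values were 109.8 at 3 h, 210.3 and 145 at 12 h and 178 at 24 h. Each treated array was above every untreated array, though at 3 h by little, and the difference of 0.64 ± 0.23 did not pass (limma adjusted p = 0.285). BMPR1A, another BMP type I receptor, ran from 56.7 to 139.9 with a difference of 0.10.

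ACVR2B, a type II receptor shared by activins, Nodal and several BMPs, was 6287 at 0 h. Without BMP4 it was 3746 at 3 h, 4344 and 4102 at 12 h and 4207 at 24 h, and with BMP4 4318 at 3 h, 2970 (A) and 3469 (B) at 12 h and 2589 at 24 h. The treated arrays were above the untreated one at 3 h and below the untreated ones at 12 and 24 h. At 24 h the difference was −0.69 ± 0.21 (limma adjusted p = 0.238). ACVR2A gave −0.50 at 24 h and ACVR1 0.23, neither called.

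For the TGF-beta receptors, TGFBR1 (type I, 1581 to 2807) had a BMP4 difference of 0.09 and the dim TGFBR2 (type II, 12.2 to 73.4) one of 0.52. ENG, an endothelial co-receptor for TGF-beta and BMP9, ran from 98.7 to 252 and was highest on the BMP4 24 h array, without a call (0.77 at 24 h). The BMP co-receptors RGMA (7.78 to 60.3) and RGMB (58.3 to 138) had differences of 0.62 and −0.38. RGMA passed the 40th percentile on 2 arrays and TGFBR2 on 3, all of them BMP4 arrays. Both were thus tested only through the arm where they are high, so their positive differences are no evidence of a BMP4 response. Of 12 endothelial markers, 5 were called higher from 3 h to 24 h over both agents and 0 for BMP4 over the 3 times, with summed signals from 5017 to 13717. The part of endothelial cells in the ENG values was not tested.

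**Figure D4:**
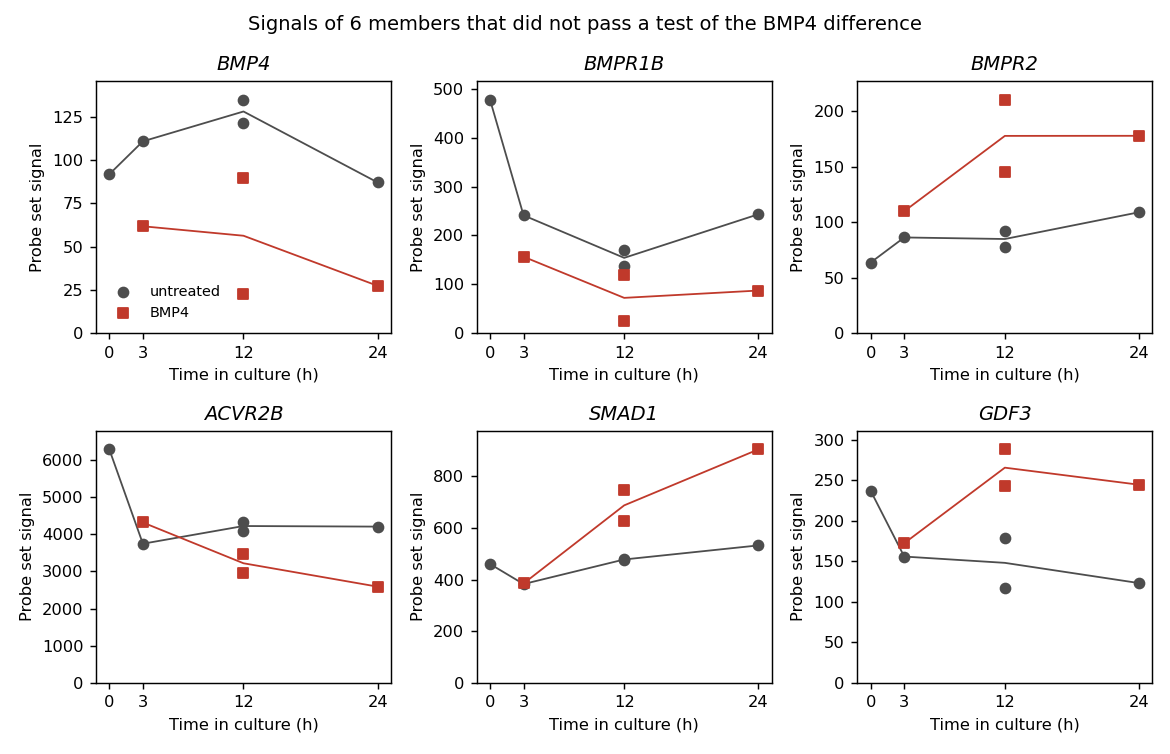
Signal of 6 members that were not called for BMP4 but whose arms stayed apart at 12 h, against time in culture, with untreated arrays as grey circles, BMP4 arrays as red squares and lines through the value or, at 12 h, the mean of A and B. BMP4, BMPR1B and ACVR2B lie lower, and BMPR2, SMAD1 and GDF3 higher, on the treated arrays at 12 and 24 h. These 6 were picked after their values were seen. Other probe sets of BMP4, not drawn, did not lie lower on both treated 12 h arrays.

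The extracellular proteins held the only member called for BMP4. SOSTDC1, read by 1 probe set, was 264 at 0 h and 207 at 3 h, then 594 and 575 at 12 h and 1019 at 24 h in untreated explants. In BMP4-treated explants it was 212 at 3 h, 339.6 and 310.3 at 12 h and 215 at 24 h. The arms were alike at 3 h, did not overlap at 12 h, and were farthest apart at 24 h, where the treated signal lay at about its 3 h value. SOSTDC1 was 4.31-fold lower with BMP4 at 24 h (−2.11 ± 0.34, limma adjusted p = 0.0247). The difference was −0.80 ± 0.24 at 12 h (adjusted p = 0.272) and 0.03 at 3 h. Over the 3 times it was −0.92 ± 0.27 (adjusted p = 0.158), and without the 3 h arrays it was called. The change of the BMP4 difference from 3 h to 24 h, −2.14 ± 0.48, did not pass (adjusted p = 0.290).

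In untreated explants SOSTDC1 rose 3.58-fold from 0 h to 24 h (1.84 ± 0.34, limma adjusted p = 0.0280), while the 12 h value did not pass (1.07, adjusted p = 0.160). Both 24 h calls compare single arrays and share the untreated 24 h array. Without the filter on dim probe sets the adjusted p-values were 0.0571 for BMP4 and 0.0534 for time, and without the variance trend 0.350 and 0.234. On the same 24 h arrays the ACTB ratio and the summed cardiomyocyte signal differed most between the arms, and 3 of 5 tested neural and placode markers were called lower with BMP4. Of 9 tested neural crest markers, 7 were lower and 2 higher with BMP4 on these arrays. TFAP2B was 6721 without and 844 with BMP4, and DLX1 was 325 without and 13.4 with it. The part of any of these in the SOSTDC1 difference was not tested.

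LTBP1, which binds latent TGF-beta and anchors it in the matrix, was 2140.2 at 0 h and 2209 at 3 h, 3254 and 2252 at 12 h and 4472 at 24 h without BMP4. With BMP4 it was 2265 at 3 h, 3410.2 and 2919 at 12 h and 4881 at 24 h. The 24 h arrays were the highest in both arms, and the arms overlapped at 12 h. LTBP1 rose 2.08-fold from 3 h to 24 h (1.05 ± 0.18, limma adjusted p = 0.00391). From 0 h to 24 h in untreated explants it was 1.05 (adjusted p = 0.110), and it was called there when either untreated 12 h array was left out. The 5 other tested probe sets of LTBP1 gave 0.63, 0.52, 0.24, 0.0028 and −0.84 from 3 h to 24 h, and their mean with the first was 0.27 (adjusted p = 0.472). Without the variance trend the adjusted p was 0.0873. From 3 h to 24 h over both agents, 9 of 11 cardiomyocyte markers were called higher as well. Their part in the rises of BMP2, BMP7 and LTBP1 was not tested.

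TWSG1, a modulator that binds BMP and chordin, was 1096 at 0 h, 1723 at 3 h, 806 and 807 at 12 h and 1133 at 24 h without BMP4. BMP4-treated explants had 775 at 3 h, 961 and 1029 at 12 h and 1432 at 24 h. The treated array was below the untreated one at 3 h and above at the later times, and −1.12 ± 0.27 at 3 h did not pass (limma adjusted p = 0.876). FST, follistatin, which traps activin, was 233 at 0 h and between 81.3 and 149 on the other untreated arrays. Its treated signals were 104, 143 and 121, and 12.4 at 24 h, the lowest of all. The difference at 24 h was −1.44 ± 0.45 (adjusted p = 0.249), with −0.61 for its second probe set, and the last signal lies below the added 27.79. CHRD (185 to 373), the BMP antagonist chordin, its relative CHRDL1 (40.5 to 118) and FSTL1 (56.0 to 112) had BMP4 differences over the 3 times of 0.05, 0.32 and 0.19.

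The 7 tested SMADs and intracellular regulators had BMP4 differences between −0.11 and 0.43 over the 3 times, and none was called in any comparison. SMAD1, which carries the BMP signal to the nucleus, was 460.3 at 0 h, 383 at 3 h, 474 and 482 at 12 h and 532 at 24 h without BMP4. In the treated arm it was 385 at 3 h, 627 and 748 at 12 h and 904 at 24 h. The arms were alike at 3 h and did not overlap at 12 h, and the BMP4 24 h array was the highest. The difference at 24 h was 0.73 ± 0.32 (limma adjusted p = 0.475), and the difference from 3 h to 24 h over both agents was 0.81 ± 0.24 (adjusted p = 0.0656). SMAD5 (62.2 to 139.6), which acts like SMAD1 in BMP signaling, had a difference of −0.11.

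SMAD2 (1074 to 2073), which serves activin and TGF-beta, gave 0.49 with BMP4 at 12 h and −0.45 at 24 h, neither called. SMAD3 (565 to 866) gave 0.25 over the 3 times. The ubiquitin ligases that limit SMAD levels were among the steadiest members: SMURF1 ran from 782 to 1255 with a difference of 0.18, and SMURF2 from 94.7 to 136 with −0.04. SKIL, a SMAD co-repressor, ran from 59.8 to 210.1 with 0.30, and its untreated 12 h arrays differed 2.45-fold from each other.

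At 12 h, where both arms have duplicates, both BMP4 arrays lay above both untreated arrays for 13 of the 36 members (36.1%), beside 20.8% of all tested genes. These were ACVR1, BMP6, BMPR1A, BMPR2, CHRDL1, GDF3, SMAD1, SMAD2, SMAD3, SMURF1, TGFBR1, TGFBR2 and TWSG1. Of these, TGFBR2 passed the filter on dim probe sets through BMP4 arrays only. Both BMP4 arrays lay below for 4 members (11.1%), beside 19.8% of all genes, namely ACVR2B, BMP4, BMPR1B and SOSTDC1. The arms overlapped for the other 19. These counts rest on 1 probe set per gene. Another BMP4 probe set had both treated arrays above both untreated ones (102.88 and 62.06 against 56.23 and 61.07). The remaining BMP4 probe set overlapped. The lowest limma adjusted p of the members at 12 h was 0.272, for SOSTDC1.

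Further pathway genes were read from longer lists, to set their BMP4 response beside that of genes listed as BMP-SMAD targets. These lists were chosen with earlier results of these data known, so their counts are no independent test. Whether a listed target is a direct one here was not tested. Of 23 tested BMP-SMAD target genes, 10 were called higher and 0 lower with BMP4 over the 3 times, beside 1.15% and 0.71% of all genes. The counts were 7 and 0 at 12 h (0.693% and 0.342% of all genes) and 1 and 0 at 3 h (0.0257% and 0%). At 24 h they were 3 and 1 (0.436% and 0.778%). MSX2, a homeobox target, rose by 1.87 ± 0.10 over the 3 times (limma adjusted p = 6.60e-07) and was the 1 target called at 3 h (1.92 ± 0.19, adjusted p = 0.0123). HEY1 was the target called lower at 24 h (−1.37 ± 0.17, adjusted p = 0.00704). The textbook BMP targets ID1, ID2 and ID3 were at 0.33 (adjusted p = 0.436), 0.14 (adjusted p = 0.501) and 0.39 (adjusted p = 0.124) over the 3 times, without a call.

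The pathway's feedback inhibitors were among the genes called. SMAD6, an inhibitory SMAD, was higher with BMP4 by 0.54 ± 0.07 over the 3 times (limma adjusted p = 0.00182). SMAD7, its relative, was higher by 1.15 ± 0.24 (adjusted p = 0.0367). For SMAD7 the differences were 2.17 at 3 h, 1.04 at 12 h and 0.34 at 24 h, none of them called alone. HIPK2, a kinase, was the other of 3 called among 26 tested intracellular regulators (0.98, adjusted p = 0.0110). Of 25 tested further receptors and extracellular modulators, 3 were called higher and 1 lower over the 3 times. Of all tested genes, 1.15% were called higher and 0.71% lower. BAMBI, a pseudoreceptor that blocks signaling, was higher with BMP4 by 1.11 ± 0.08 (adjusted p = 1.28e-05). The BMP-binding BMPER was higher by 1.25 ± 0.27 (adjusted p = 0.0445) and the Nodal co-receptor CFC1 by 0.66 ± 0.10 (adjusted p = 0.00681). CFC1 itself fell with time, by −0.84 from 3 h to 24 h over both agents. TMEFF2 was lower with BMP4 by 0.79 (adjusted p = 0.0403).

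None of 9 tested further ligands was called for BMP4, beside 1.15% of all genes higher and 0.71% lower over the 3 times. With 9 genes, a count of 0 does not set them apart from other genes. Their median BMP4 difference was 0.50 over the 3 times, with 5 positive and 4 negative. At the single times it was −0.072 at 3 h, 0.39 at 12 h and 0.97 at 24 h. Of 20 TGF-beta and activin responsive genes, which include the member SKIL, SMAD7 was the 1 called over the 3 times, beside the same shares. SMAD7 also stands in the BMP target list. Some genes of these lists were called between times. In comparisons with 0 h, plating and time in culture cannot be told apart. CDKN2B, a cell cycle inhibitor, was higher than at 0 h on the untreated 3 h array (5.42), at 12 h (6.17) and at 24 h (5.55). The matrix protein DCN, which binds TGF-beta, rose from 0 h to 24 h by 3.65 ± 0.21 (limma adjusted p = 4.70e-05). CER1, a secreted antagonist of Nodal and BMP, fell by 2.82 over the same time (adjusted p = 0.0137), a size that depends on the added 27.79 because its 24 h signal lies below it, and LRRC32, which displays latent TGF-beta, fell by 3.22 (adjusted p = 0.00626). GDF2, the ligand BMP9, rose by 1.81 ± 0.30 from 3 h to 24 h over both agents (adjusted p = 0.00289).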

How the data were processed

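RNA of 9 explant samples was read on Affymetrix chicken arrays. The deposited values are linear probe set signal intensities, made by the authors with MAS5 per the submitters' processing notes; its version and scaling target are not given in the sources used here. The 2% trimmed means were 503.7 to 504.7, so no further scaling was applied. No detection calls were used.

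Log2(signal + 27.79), the 25th percentile of all signals, was computed here from the deposited intensities. Probe sets above their array's 40th percentile on at least 2 arrays were tested, 28329 of 38535, without the 96 controls. Limma 3.58.1 in R 4.3.3 was used with a variance trend and Benjamini-Hochberg adjustment, two-sided. The BMP4 difference over the 3 times and the comparisons over both agents came from a model of time plus agent on the 8 cultured arrays (4 residual degrees of freedom). The others came from 9 arrays with 7 group means (2 residual degrees of freedom), so a lone array is given the variance seen between the 12 h duplicates. The fits were tested on simulated data with the same spread on all 9 arrays. That could not show whether lone arrays vary like the 12 h duplicates.

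Names came from the array annotation and RefSeq (assembly GRCg7b): 27168 probe sets carry 1 symbol, 177 several and 11094 none. The members and lists were chosen with earlier results of these data known. Every member is accounted for, and those called in any comparison are given on every array. Other members are named by role, and further genes where called or from MSX2, SMAD6, SMAD7, BAMBI and the ID genes. Alternatives were another pseudocount, no filter, quantile normalization, no variance trend, A and B as a block, averaging each gene's probe sets, another threshold, and leaving out arrays or times. The number of arrays limits the precision.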

Additional observations from a re-analysis of the deposited data

How the results depend on the processing

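No called member changed sign under any alternative. Some alternatives could hardly drop a call. An adjusted p under 0.10 keeps every call by construction. Averaging leaves the values of a gene with 1 probe set, such as SOSTDC1 or TGFB2, unchanged. Leaving out a 12 h array changes the spread but not the 0 h or 24 h signals. The tallies that follow are therefore no count of independent checks. BMP7 was called in 12 of 12 alternatives in both of its comparisons, SOSTDC1 in 9 of 11 for BMP4 at 24 h and 9 of 11 for 24 h against 0 h, INHBA in 10 of 11, TGFB2 in 8 of 11, and BMP2 and LTBP1 in 10 of 12 each. Without the variance trend, 0 members were called for BMP4 at 24 h, 0 for 12 h and 0 for 24 h against 0 h, and 1 (BMP7) for 24 h against 3 h over both agents. Without the filter, 0 were called for BMP4 at 24 h and 0 for 24 h against 0 h, where more probe sets enter the adjustment. With a pseudocount of 1, 1 member was called for 24 h against 0 h. At an adjusted p under 0.10, 2 were called for 12 h and 5 for 24 h against 3 h over both agents. Without the 3 h arrays 1 member (SOSTDC1) was called for BMP4 over the remaining times, and without the 24 h arrays 2 were called for 12 h against 3 h. Leaving out 1 of the 12 h arrays gave 0 to 1 members for BMP4 at 12 h, 1 to 2 for 12 h against 3 h, 2 to 3 for 24 h against 0 h and 3 to 4 for 24 h against 3 h. Averaging the tested probe sets of each gene also gave 3 calls for 24 h against 3 h, of which BMP7 was shared, with INHBB lower and SMAD1 higher in place of BMP2 and LTBP1. Where no construction of an alternative shows it, the cause was not tested.

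The letters A and B occur in both 12 h groups. The A minus B differences of the arms correlated at 0.126 over 28329 probe sets, with only 2 pairs. The ACTB ratio was 5.44 and 5.50 on the untreated and BMP4 A arrays, and 3.80 and 4.26 on the B arrays. Untreated A correlated at 0.966 with BMP4 A and at 0.962 with BMP4 B. Untreated B correlated at 0.969 with BMP4 B and at 0.966 with BMP4 A. The labels do not say whether the letters pair the samples. The main tests do not pair them, and their counts depend on that choice. With A and B as a replicate block, the members called were 1 for BMP4 at 12 h, 1 at 3 h (TWSG1, lower), 3 at 24 h, 4 for the change from 3 h to 24 h, 3 for untreated 3 h, 6 for 12 h and 6 for 24 h against 0 h. The block leaves fewer residual degrees of freedom, and the lone arrays enter it with A. As for the other alternatives, no share of all genes under the same setting is given here. The counts thus do not set the members apart from other genes.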
